A study of Mus musculus with 12 samples.

Results

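The 8 genes of fatty acid synthesis and lipid storage followed through the 10 libraries were Acly, Acaca, Fasn, Elovl6, Scd1, Scd2, Srebf1 and Plin2. They were taken by mouse symbol, and all 8 were found among the 30803 genes of the GSH and WT table and among the 17558 genes of the Cas9 and Ctrl table. In the GSH against WT comparison the 3 genes that lead to palmitate, Acly, Acaca and Fasn, were higher in GSH libraries, as was the lipid droplet coat gene Plin2. Scd2, the most abundant desaturase gene, was lower, while Scd1, Elovl6 and Srebf1 were not called. In the Cas9 against Ctrl comparison no gene was called. Cas9 libraries all lay above the Ctrl library for Plin2 alone of the 8 genes, and all below it for 6. Beside this, 20.1% of all genes tested lay wholly above it and 22.5% wholly below it.

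All samples are labelled as 4T1, a carcinoma line derived from a BALB/c mammary tumour, kept in serum-containing medium and given the treatment label culture. They form 4 groups by the genotype label: GSH (3 libraries), WT (3 libraries), Cas9 (3 libraries) and Ctrl, of which library Ctrl 3 was used. The labels describe 12 samples, and Ctrl 1 and Ctrl 2 were not analysed here. What the genotype GSH stands for, which gene the Cas9 group targets, and whether a group is 1 clone are not given in the sources used here, so no targeted gene could be read out. Separate cultures behind the replicates are not stated, and p-values therefore reflect the scatter of these libraries, which could be technical only.

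Fatty acid synthesis starts in the cytosol from citrate exported by mitochondria. ATP citrate lyase (Acly) splits citrate to acetyl-CoA, acetyl-CoA carboxylase 1 (Acaca) turns acetyl-CoA into malonyl-CoA, and fatty acid synthase (Fasn) builds palmitate from them. Elovl6 lengthens palmitate to stearate, and the stearoyl-CoA desaturases Scd1 and Scd2 place a double bond in these saturated chains. Srebf1 encodes SREBP-1, a membrane-bound transcription factor that, once cut and released, drives the genes of this pathway, and its own transcript is under SREBP and LXR control. Perilipin 2 (Plin2) coats lipid droplets, the stores of neutral lipid, in most cell types. Many carcinomas are known to make fatty acids themselves rather than rely on uptake.

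The deposited values were FPKM, that is reads of a gene divided by a length taken for that gene and by the reads of the library. In the GSH and WT table this gene length equalled the merged exons of the gene for 96.3% of genes where it could be worked out. Whole reads could be read back from their steps, and totals came to 18531444 to 30168737 reads in GSH libraries, 20297490 to 21954133 in WT libraries, 33152215 to 35742818 in Cas9 libraries and 39201544 in Ctrl 3. The epithelial and keratin markers of the labelled line summed to 2215 to 2335 FPKM in GSH libraries and 2162 to 2239 FPKM in WT libraries, with 7 of 7 markers at 1 FPKM or more in every library. Adipocyte markers, listed because fat cells express many of the 8 genes, summed to 2.68 to 2.97 FPKM in GSH libraries and 2.69 to 2.90 FPKM in WT libraries. Lipe was the only 1 of 11 that reached 1 FPKM, and Adipoq, the fat-cell hormone adiponectin, and Plin1, the fat-cell perilipin, stayed at or below 0.169 and 0.0143 FPKM in the 6 libraries. Transcripts of odorant-binding, major urinary and related secretory proteins summed to 376.7 FPKM in GSH 2, 134.2 FPKM in GSH 3 and 264.7 FPKM in WT 3, against 1.37 to 5.94 FPKM in the other 3 libraries. In these bulk samples fewer cells of a type and less RNA per cell cannot be told apart.

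The Cas9 and Ctrl libraries went against the culture label in their markers. Macrophage markers (9 of 9 at 1 FPKM or more) summed to 5326, 4036 and 2138 FPKM in Cas9 1, 2 and 3 and to 4769 FPKM in Ctrl 3. In the other table, normalised separately, they summed to 24.3 to 35.3 FPKM in GSH libraries and 26.8 to 29.8 FPKM in WT libraries. Fibroblast markers summed to 491.7, 1577 and 469.9 FPKM in the 3 Cas9 libraries and to 1030 FPKM in Ctrl 3. Endothelial markers summed to 148.1, 64.3 and 94.6 FPKM in Cas9 libraries and to 75.3 FPKM in Ctrl 3. Neutrophil markers summed to 243.0, 189.7 and 711.0 FPKM in Cas9 libraries and to 153.0 FPKM in Ctrl 3, mostly from S100a9 and S100a8. Of these 7 markers 5 reached 1 FPKM, and Ly6g and Mpo did not. Csf3r did not follow the sum, at 10.7, 12.0 and 13.1 FPKM in Cas9 libraries and 11.6 FPKM in Ctrl 3. T and B lymphocyte markers summed to 29.7 to 42.8 FPKM in Cas9 libraries and 30.2 FPKM in Ctrl 3. Epithelial markers were present there too, at 1827 to 2565 FPKM in Cas9 libraries and 2255 FPKM in Ctrl 3.

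Per unit of gene length, Scd2 stood above the other genes in every library. It averaged 368.6 ± 4.47 FPKM in GSH libraries and 405.6 ± 4.70 FPKM in WT libraries (SD, n = 3 each), which was 4.05 times the next gene, Fasn, in GSH and 5.28 times in WT. Scd2 took 43.7% ± 1.03 of all reads of the 8 genes in GSH libraries and 49.6% ± 0.844 in WT libraries. Behind it the order in GSH libraries was Fasn, Plin2, Acly, Srebf1, Elovl6, Scd1 and Acaca. In WT libraries it was Fasn, Acly, Plin2, Srebf1, Elovl6, Scd1 and Acaca. Acly and Plin2 thus changed places: Plin2 was the higher of the pair in 3 of 3 GSH libraries and the lower in 3 of 3 WT libraries, although the ranges of their levels overlapped within each group. Their order rests on the gene lengths used, since before division by length Acly had more reads than Plin2 in every GSH and WT library. Fasn and Plin2 also overlapped in GSH libraries, and no other neighbours in these orders overlapped. Reads of the 8 genes together were 0.461% ± 0.00765 of the library in GSH and 0.447% ± 0.00351 in WT.

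**Figure D1:**
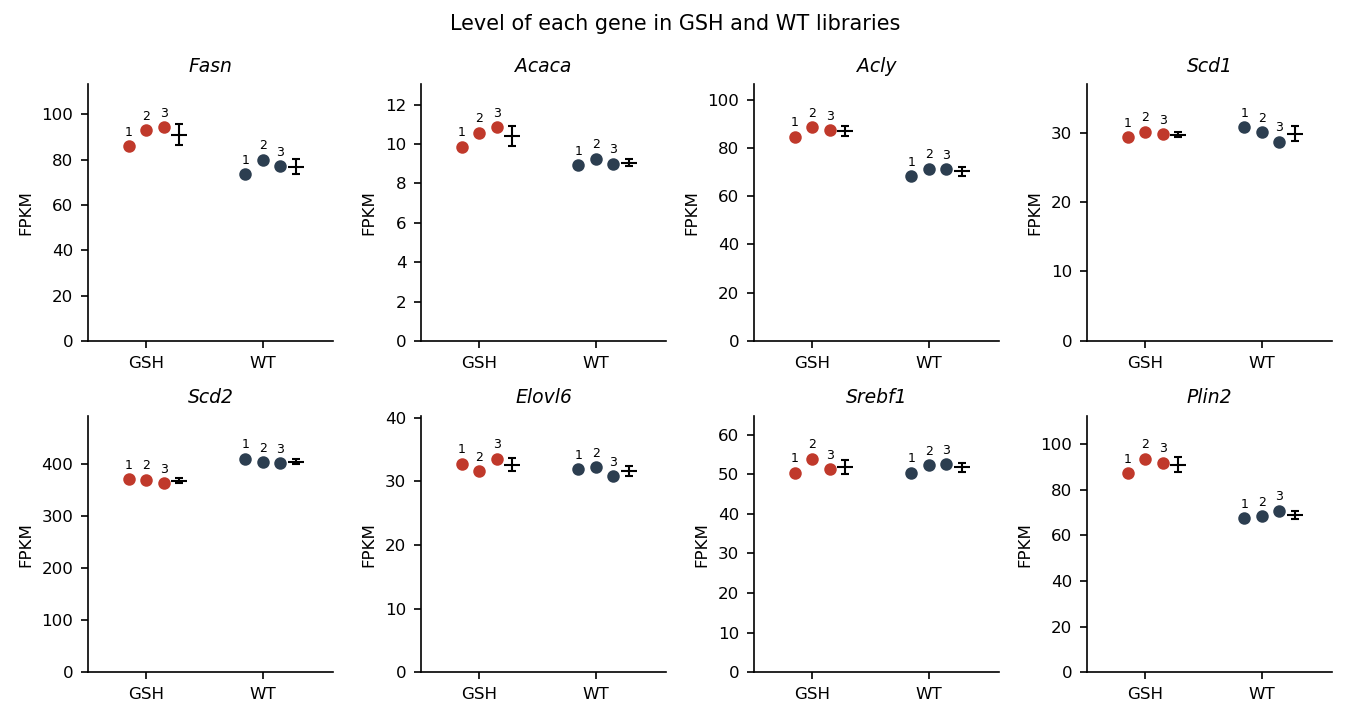
Level of each gene in FPKM (vertical axes, linear, starting at 0) in the GSH and WT libraries. Points are libraries with their replicate number and the crosses give the mean ± SD of the 3 libraries; Fasn, Acaca, Acly and Plin2 have all GSH points above all WT points, Scd2 has them below, and Scd1, Elovl6 and Srebf1 overlap.

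The first question the design sets is how GSH libraries differ from WT libraries. Differences were tested with limma on log2(FPKM + 1) across 12283 genes with a mean of 1 FPKM or more, all 8 genes included, and a gene was called at a Benjamini-Hochberg adjusted p below 0.05. Called genes made up 37.0% of all genes tested, 20.6% called higher and 16.4% called lower, so a call by itself is common here. Of the 8 genes 4 were called higher, 1 lower and 3 not. The GSH and WT libraries did not overlap for the same 5 genes, beside 52.5% of all genes tested (29.0% higher and 23.5% lower in GSH). Their median log2 change was 0.11, against 0.02 over all genes tested.

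Acly, the enzyme that supplies cytosolic acetyl-CoA, measured 84.5, 88.5 and 87.3 FPKM in GSH 1, 2 and 3, against 68.3, 71.4 and 71.1 FPKM in WT 1, 2 and 3. The lowest GSH library lay above the highest WT library. The mean was 86.8 ± 2.05 FPKM in GSH and 70.3 ± 1.73 FPKM in WT (SD, n = 3 each), 23.5% higher, and the log2 change was 0.30 (SE 0.03, limma adjusted p = 0.00198). In size this change exceeded that of 89.2% of all genes tested.

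Acaca, whose product commits acetyl-CoA to fatty acid synthesis, was the least abundant of the 8. It measured 9.87, 10.6 and 10.9 FPKM in GSH libraries, against 8.92, 9.25 and 9.0 FPKM in WT libraries, again without overlap. The mean was 10.4 ± 0.508 FPKM in GSH and 9.06 ± 0.171 FPKM in WT, a log2 change of 0.18 (SE 0.04, limma adjusted p = 0.0145). The call ended without WT 1 (adjusted p = 0.0519) and when values were rescaled to the library total without genes of the mitochondrial genome (0.0732).

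Fasn, the synthase itself, measured 85.9, 93.1 and 94.3 FPKM in GSH libraries, against 73.5, 80.0 and 77.0 FPKM in WT libraries. GSH 1 was the lowest GSH library and still stood above the highest WT library, WT 2. The mean was 91.1 ± 4.56 FPKM in GSH and 76.9 ± 3.25 FPKM in WT, and the log2 change was 0.24 (SE 0.05, limma adjusted p = 0.0107), larger than that of 80.8% of all genes tested. GSH 1, the most deeply sequenced of the 6 GSH and WT libraries, was the lowest GSH library for Acly, Acaca, Fasn and Plin2 alike.

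Of the genes for the steps after palmitate, none was called higher. Elovl6 measured 32.8, 31.6 and 33.6 FPKM in GSH libraries, against 31.9, 32.3 and 30.8 FPKM in WT libraries. The groups overlapped, and the log2 change was 0.04 with a 95% interval of -0.04 to 0.12 (limma adjusted p = 0.360). Scd1 measured 29.3, 30.1 and 29.7 FPKM in GSH libraries, against 30.8, 30.01 and 28.7 FPKM in WT libraries. These ranges were nested, and the 95% interval of its log2 change ran from -0.08 to 0.07 (adjusted p = 0.931).

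Scd2, known as the main stearoyl-CoA desaturase of mouse brain, measured 371.4, 371.0 and 363.5 FPKM in GSH libraries, against 411.0, 403.8 and 402.2 FPKM in WT libraries. All 3 GSH libraries were below all WT libraries. The log2 change was -0.14 (SE 0.03, limma adjusted p = 0.0107), or 9.12% lower by the means, and in size it was near the middle of all genes tested, above 53.2% of them. The call ended without GSH 3 (adjusted p = 0.0515) and with no filter on low values (0.0626), while the direction was the same. Scd1 and Scd2 are similar in sequence: 4.56% of the 50-base stretches of Scd1 transcripts and 3.75% of those of Scd2 also occur in other Scd genes, and how the authors counted reads from such stretches is not given in the sources used here.

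Srebf1, the transcription factor gene, measured 50.4, 53.9 and 51.3 FPKM in GSH libraries, against 50.4, 52.3 and 52.5 FPKM in WT libraries. The groups overlapped almost fully. The log2 change was 0.00 with a 95% interval of -0.08 to 0.09 (limma adjusted p = 0.942). A value per gene does not separate its transcripts with alternative first exons, and cutting of the protein is not measured by RNA. Genes annotated on the other strand overlap Srebf1, Acaca and Elovl6, and without strand in the counting reads of such pairs could not be told apart.

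Plin2, the droplet coat gene, changed most of the 8. It measured 87.3, 93.6 and 91.9 FPKM in GSH libraries, against 67.6, 68.5 and 70.9 FPKM in WT libraries. The gap between the lowest GSH and the highest WT library was wider than the range within either group. The mean was 90.9 ± 3.24 FPKM in GSH and 69.0 ± 1.71 FPKM in WT, 31.8% higher, with a log2 change of 0.39 (SE 0.04, 95% interval 0.31 to 0.48, limma adjusted p = 0.00178). That change was larger than the change of 95.5% of all genes tested.

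**Figure D2:**
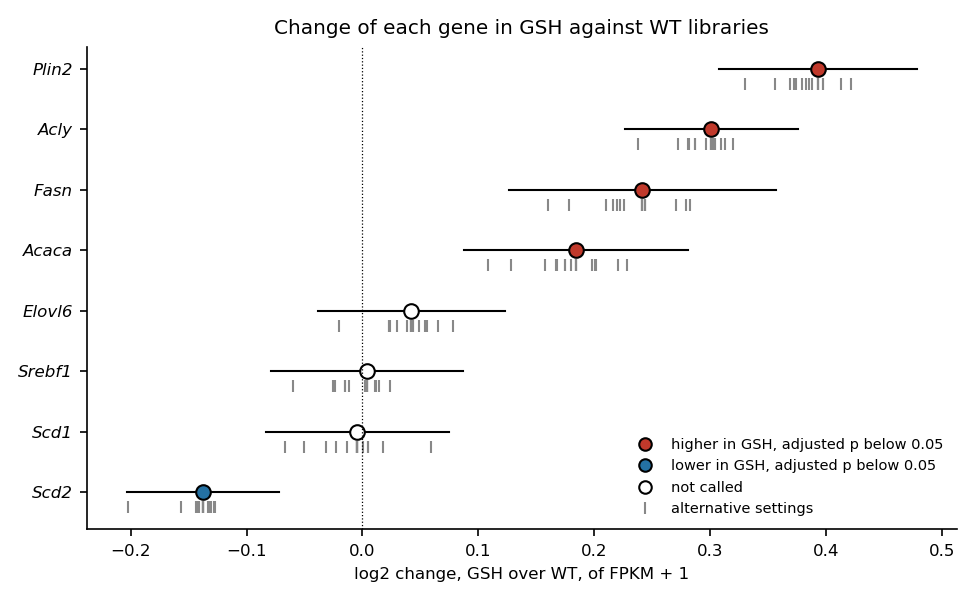
log2 change of FPKM + 1, GSH over WT (horizontal axis), for each gene, with its 95% interval from limma as a line and the values under the alternative settings as ticks below it. Plin2, Acly, Fasn and Acaca lie to the right of 0 under every setting drawn, Scd2 to the left, and the ticks of Elovl6, Srebf1 and Scd1 fall on both sides of 0.

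The fewest reads behind any of these values in the GSH and WT libraries were 2695, for Scd1 in GSH 3, a counting error of 1.93%. Within WT 3, GSH 2 and GSH 3, the libraries with secretory protein transcripts, the log2 change was 0.30 for Acly, 0.23 for Acaca, 0.28 for Fasn, 0.38 for Plin2 and -0.13 for Scd2. Within WT 1, WT 2 and GSH 1 the changes were 0.27, 0.11, 0.16, 0.36 and -0.13 in the same order. In each subset 1 group has 1 library and limma called 0 of the 8 genes. Because the 6 libraries do not overlap for the 5 called genes, the sign in a subset was fixed in advance, and the part of the secretory transcripts was not tested by it. Fibroblast markers summed to 14.4, 28.9 and 14.0 FPKM in GSH libraries and 3.26, 8.84 and 16.0 FPKM in WT libraries. Means of Col1a1, Col1a2, Col3a1 and Dcn were higher in GSH. Those of Pdgfra (2.17 FPKM in GSH and 2.18 in WT) and Lum (0.178 FPKM in GSH and 0.227 in WT) were not. The part of these markers in the results was not tested.

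Ratios of genes within a library do not depend on how the library was scaled. Plin2 per Fasn was 1.02, 1.01 and 0.974 in GSH libraries, against 0.919, 0.855 and 0.920 in WT libraries. Scd1 per Scd2 was 0.0789, 0.0811 and 0.0818 in GSH libraries, against 0.0749, 0.0743 and 0.0713 in WT libraries. Neither ratio overlapped between the groups, and each gave p = 0.1 in an exact two-sided permutation test over the libraries, which is the smallest p that 3 against 3 allows. The difference of mean log2 ratios, GSH minus WT, was 0.15 for Plin2 per Fasn and 0.13 for Scd1 per Scd2.

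A further 7 ratios were formed after the values of their genes had been seen, and are given as a description. Each also gave p = 0.1 in the exact permutation test, which lends no support to ratios picked in this way. Fasn per Scd2, synthase over desaturase, was 0.247 ± 0.0145 in GSH and 0.190 ± 0.00981 in WT (SD, n = 3 each). Fasn per Srebf1, enzyme over regulator, was 1.76 ± 0.0718 in GSH and 1.49 ± 0.0390 in WT. Fasn per Acaca, the last 2 enzymes before palmitate, was 8.73 ± 0.0610 in GSH and 8.48 ± 0.216 in WT. Elovl5 per Elovl6, the elongase of polyunsaturated chains over that of palmitate, was 1.89, 1.89 and 1.88 in GSH libraries, against 2.41, 2.41 and 2.44 in WT libraries.

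**Figure D3:**
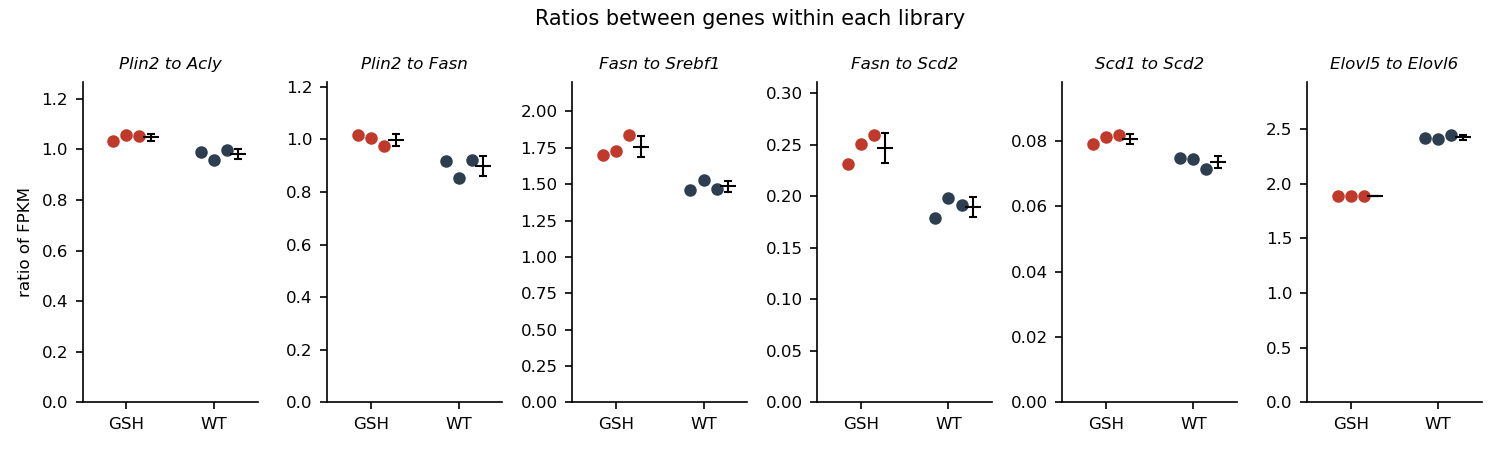
Ratio of the FPKM of 2 genes within each library (vertical axes, linear, starting at 0) for GSH and WT libraries. Points are libraries and crosses the mean ± SD of 3; the first 5 ratios are higher in all GSH libraries than in all WT libraries, and Elovl5 to Elovl6 is lower, at 1.88 to 1.89 in GSH and 2.41 to 2.44 in WT.

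Over the 6 libraries, the levels of Acly and Plin2 followed each other most closely among the 8 genes (Pearson r 0.994 of log2(FPKM + 1)), and so did Fasn and Acaca (0.988). Scd2 ran opposite to Acly (-0.986), Plin2 (-0.982) and Fasn (-0.952). Srebf1 was most like Fasn, at 0.33, and most unlike Elovl6, at -0.52. These values describe 6 libraries in 2 groups, in which all genes of a library share its depth and scaling, and for the called genes they mostly restate the group difference. Among all genes tested, the 3 whose pattern was closest to Fasn were Cad, Tln1 and Flnc (0.998, 0.998 and 0.996). Closest to Plin2 were Rnf19b, Atp5d and Ubb (0.999 each), and closest to Srebf1 were Gm23300, Dspp and Tmem222 (0.994, 0.993 and 0.976). Srebf1 varied little, and its matches were picked as the highest among 12283 tested genes over 6 libraries, so no link between these genes can be read from them.

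Promoter windows are shown for the 4 genes that rose together, Acly, Acaca, Fasn and Plin2, and for Srebf1, which was not called. RefSeq promoter windows (build GRCm38.p6) were found for 6 of the 8 genes, with 3 starts for Srebf1. Scd1 and Scd2 had no entry. The 150 bases before the start are printed 5′ to 3′ on the strand of the gene. The windows lie on the plus strand for Acaca, at chr11:84195288-84195437, and on the minus strand for the others: Fasn at chr11:120824548-120824697, Acly at chr11:100528001-100528150, Plin2 at chr4:86670060-86670209 and the most downstream start of Srebf1 at chr11:60210472-60210621. Capitals mark CCAAT, the core bound by NF-Y, and GGGCGG, the core bound by SP1, each on either strand; both factors are known to act beside SREBP.
Fasn: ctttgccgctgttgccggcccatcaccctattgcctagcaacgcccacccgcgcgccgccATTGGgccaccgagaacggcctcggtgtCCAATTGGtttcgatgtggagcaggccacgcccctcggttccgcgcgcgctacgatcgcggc
Acly: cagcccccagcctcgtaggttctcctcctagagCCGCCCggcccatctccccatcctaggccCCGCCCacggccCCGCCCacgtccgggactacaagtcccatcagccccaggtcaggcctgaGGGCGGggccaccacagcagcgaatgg
Acaca: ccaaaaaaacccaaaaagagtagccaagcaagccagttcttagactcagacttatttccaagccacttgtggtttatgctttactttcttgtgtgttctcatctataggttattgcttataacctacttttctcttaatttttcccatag
Plin2: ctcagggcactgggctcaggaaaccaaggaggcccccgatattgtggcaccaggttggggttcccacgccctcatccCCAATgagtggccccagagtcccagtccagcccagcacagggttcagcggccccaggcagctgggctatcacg
Srebf1: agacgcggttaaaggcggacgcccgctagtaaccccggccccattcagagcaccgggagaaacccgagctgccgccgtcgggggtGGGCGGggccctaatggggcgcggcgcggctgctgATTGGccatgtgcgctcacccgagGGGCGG

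Fasn held 3 CCAAT cores, 90, 62 and 59 bases before the start, the last 2 of which overlap on opposite strands. Acly held 4 GGGCGG cores, 117, 88, 76 and 27 bases before the start, and no CCAAT. Plin2 held 1 CCAAT, 73 bases before the start. The printed Srebf1 window held 1 CCAAT at 30 bases and 2 GGGCGG at 65 and 6 bases before the start, and 2 GGGCGG stood at the middle Srebf1 start. In Acaca and Elovl6 there was neither motif within the 250 bases searched. Over these 250 bases the Acaca window has a GC content of 39.2%, against 54.4 to 70.8% in the other windows, and ends in a pyrimidine-rich run and AG, letters typical of the end of an intron. Whether the Acaca transcripts of these cells start there was not tested, so the lack of motifs says nothing of the promoter they use. Of 32851 mouse promoters, 33.8% held CCAAT and 32.7% held GGGCGG in those 250 bases, so both are common. The E-box CACGTG (6.02% of promoters) and the sterol element TCACNCCAC (1.05%), searched on both strands, were not in the windows of the 6 genes. A match is a run of letters and says nothing of binding, and the absence of a motif concerns this window alone.

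The wider pathway was read from 12 lists of 156 genes, of which 114 were tested in the GSH against WT fit. Of these 27 were called higher, 29 lower and 58 not, with a median log2 change of 0.01. The higher calls were 23.7% of those tested, near the 20.6% over all genes, and the lower calls were 25.4%, against 16.4% over all genes. Rescaled to the total without mitochondrial-genome genes, 14 were called higher and 39 lower, and the calls over all genes moved the same way, to 11.3% higher and 22.0% lower. The list counts below, rescaled ones included, stand against these shares. Without the 8 genes themselves, 23 of 106 were called higher and 28 lower.

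In the list of acetyl-CoA supply and cytosolic citrate, 6 of 7 tested genes were called higher and 0 lower, with a median log2 change of 0.26, and 5 were called higher after rescaling without mitochondrial-genome genes. Besides Acly these included citrate synthase, Cs, at 66.8 ± 0.929 FPKM in GSH and 55.5 ± 1.09 FPKM in WT (SD, n = 3 each). Aconitase 1, Aco1, averaged 16.0 ± 0.709 FPKM in GSH and 13.2 ± 0.382 FPKM in WT. The citrate carrier Slc25a1, the malic enzyme Me1 and the isocitrate dehydrogenase Idh1 were the others. Acss2, which makes acetyl-CoA from acetate instead of citrate, was not called, at 2.31 ± 0.193 FPKM in GSH and 2.19 ± 0.0686 FPKM in WT.

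In the list of fatty acid synthase, the carboxylases and their mitochondrial counterparts, Fasn and Acaca were the 2 called higher of 7 tested. Ndufab1, the mitochondrial acyl carrier protein, was called lower, at 5.78 ± 0.287 FPKM in GSH and 6.81 ± 0.0763 FPKM in WT, and 4 others, including the mitochondrial Mcat and Mecr, were not called.

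Most elongation genes were lower, Elovl6 not among them. Of 9 tested, 7 were called lower and 0 higher (median log2 change -0.21), and 8 were called lower after rescaling without mitochondrial-genome genes. Elovl5, which lengthens polyunsaturated chains, averaged 61.5 ± 1.87 FPKM in GSH and 76.6 ± 1.28 FPKM in WT (log2 change -0.31, limma adjusted p = 0.00193). The reductase Tecr and the dehydratase Hacd2, which act in every elongation cycle, were lower as well: Tecr averaged 158.8 ± 1.24 FPKM in GSH and 187.0 ± 0.943 FPKM in WT, and Hacd2 averaged 14.6 ± 0.350 FPKM in GSH and 17.9 ± 0.0419 FPKM in WT. Elovl1 was not called, at 61.1 ± 3.08 FPKM in GSH and 65.2 ± 1.32 FPKM in WT.

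Among the desaturases, 3 of 6 tested were called lower and 0 higher. Beside Scd2 these were Degs1, the dihydroceramide desaturase, at 136.9 ± 2.78 FPKM in GSH and 161.6 ± 0.800 FPKM in WT, and Fads1, which desaturates polyunsaturated chains, at 27.6 ± 0.709 FPKM in GSH and 31.3 ± 0.963 FPKM in WT. Fads2 was not called, at 119.8 ± 1.80 FPKM in GSH and 122.1 ± 0.604 FPKM in WT.

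Of the 12 tested regulators, 3 (25.0%) were called higher and 1 (8.33%) lower, shares near or under those over all genes. Srebf2, the relative of Srebf1 that mainly drives cholesterol genes, averaged 39.9 ± 0.915 FPKM in GSH and 33.6 ± 0.862 FPKM in WT (log2 change 0.24, limma adjusted p = 0.00316). Scap, the escort that carries SREBPs to the Golgi, and Insig1, which holds it back in the endoplasmic reticulum, were also called higher. Mbtps2, the protease that makes the last cut of SREBPs, was called lower, at 9.68 ± 0.459 FPKM in GSH and 11.2 ± 0.393 FPKM in WT. The cholesterol synthesis genes were mixed, with 4 of 19 called higher, Mvd among them, and 7 lower. Msmo1, a sterol methyl oxidase of that route, averaged 48.9 ± 3.46 FPKM in GSH and 63.4 ± 1.60 FPKM in WT.

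Plin2 was not joined by its whole list of droplet genes. Of 8 tested, 2 were called higher and 3 lower. Plin3, another perilipin of growing droplets, averaged 10.95 ± 0.546 FPKM in GSH and 9.39 ± 0.253 FPKM in WT. Hilpda, a hypoxia-inducible droplet protein, was lower, at 14.8 ± 0.533 FPKM in GSH and 18.2 ± 0.355 FPKM in WT, and so were Aup1 and Hsd17b11. The lipolysis genes Pnpla2, the lipase that starts triglyceride breakdown, and Abhd5, its activator, were called higher and Pnpla3 lower, 3 of 6 tested, and none of the 2 higher calls held after rescaling without mitochondrial-genome genes. In glycerolipid synthesis 1 of 13 was called higher, Dgat2 at 4.62 ± 0.267 FPKM in GSH and 4.05 ± 0.0133 FPKM in WT. Soat1, Gpat3 and Dgat1 were called lower.

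The calls among genes of fatty acid oxidation and among those of activation to acyl-CoA were in opposite directions. Of 16 tested oxidation genes 6 were called higher and 0 lower, and 3 were higher and 1 lower after rescaling without mitochondrial-genome genes. Hadh, a dehydrogenase of beta-oxidation, averaged 10.7 ± 0.153 FPKM in GSH and 8.41 ± 0.465 FPKM in WT. Cpt1a, which admits fatty acids to mitochondria, averaged 13.8 ± 0.474 FPKM in GSH and 12.2 ± 0.183 FPKM in WT. Of 8 acyl-CoA synthetases 3 were called lower and 0 higher, with Acsl3, a synthetase found on droplets, at 31.6 ± 1.40 FPKM in GSH and 38.8 ± 1.16 FPKM in WT. Among 3 tested uptake and binding genes, Fabp5 was called higher, at 38.5 ± 1.73 FPKM in GSH and 34.9 ± 0.876 FPKM in WT.

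**Figure D4:**
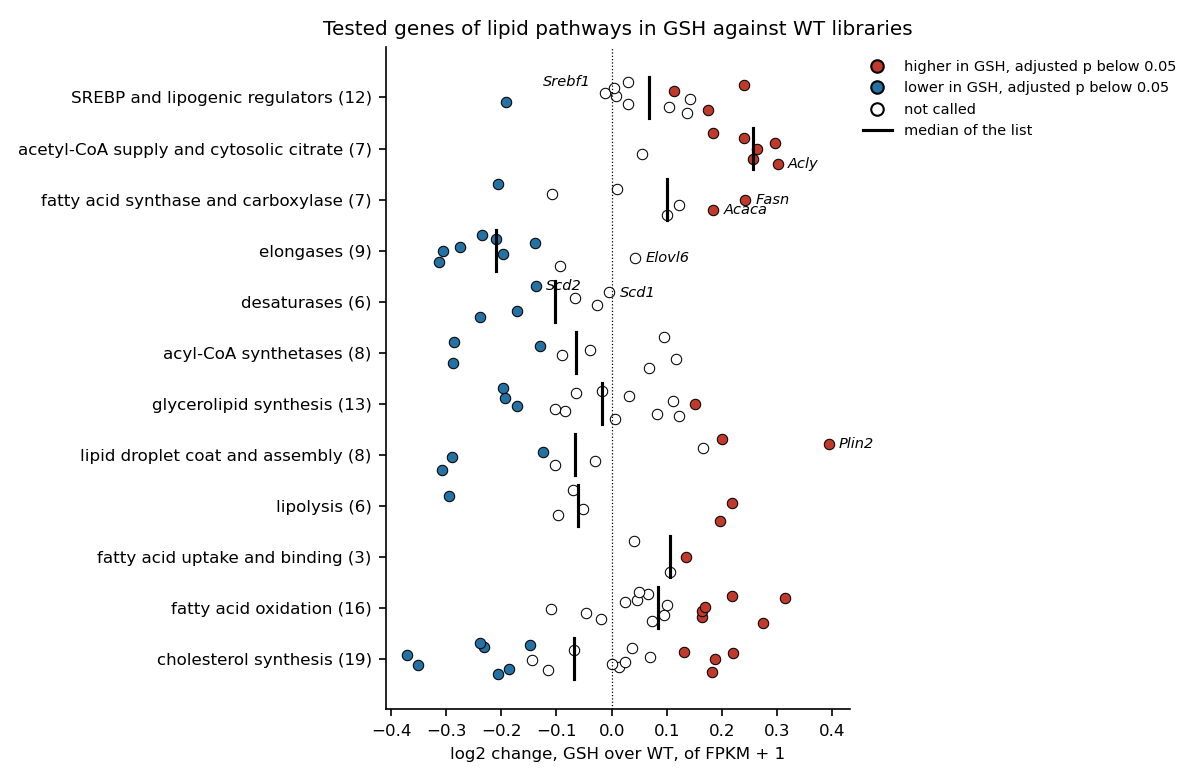
log2 change of FPKM + 1, GSH over WT (horizontal axis), of each tested gene in 12 lipid pathway lists, with the number tested in parentheses. Filled circles passed limma's adjusted p of 0.05 and bars mark the list's median, which is 0.26 for acetyl-CoA supply and -0.21 for the elongases.

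The second question the design sets is how Cas9 libraries differ from Ctrl. With Ctrl 3 alone, the residual spread came from the 3 Cas9 libraries (2 residual degrees of freedom), and the Ctrl library was assumed to vary like them. limma then drew the spread of each gene toward a trend over all genes tested. The SE, intervals and p-values below therefore do not measure the scatter of that gene alone. limma called 0 of 11407 genes (0.0%), and 210 (1.84%) passed an unadjusted p of 0.05, none of the 8 genes among them. All 3 Cas9 libraries were above Ctrl 3 for 1 of the 8 genes and below it for 6, beside 20.1% and 22.5% of all genes tested (42.6% in either direction). Levels in this table were normalised apart from those of the GSH and WT table, over partly different gene lengths, and are tested only within it.

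Plin2 measured 93.2, 77.4 and 89.5 FPKM in Cas9 1, 2 and 3, against 66.4 FPKM in Ctrl 3. The log2 change was 0.38 (SE 0.16, 95% interval -0.05 to 0.80, limma unadjusted p = 0.070, adjusted p = 1.00). Fasn measured 40.7, 41.3 and 38.9 FPKM in Cas9 libraries, against 50.8 FPKM in Ctrl 3, with a coefficient of variation of 3.17% among the Cas9 libraries. Its log2 change was -0.33 (SE 0.13, 95% interval -0.67 to 0.01, limma unadjusted p = 0.054, adjusted p = 1.00). Plin2 per Fasn was 2.29, 1.87 and 2.30 in Cas9 libraries and 1.31 in Ctrl 3.

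Acly measured 45.4, 50.5 and 42.2 FPKM in Cas9 libraries, against 54.2 FPKM in Ctrl 3. Acaca measured 7.65, 7.96 and 7.04 FPKM in Cas9 libraries, against 8.38 FPKM in Ctrl 3. Both lay below Ctrl 3 in all 3 Cas9 libraries, and the 95% intervals of their log2 changes included 0 (-0.64 to 0.18 for Acly and -0.54 to 0.27 for Acaca). Scd2 measured 101.9, 128.0 and 110.7 FPKM in Cas9 libraries, against 139.0 FPKM in Ctrl 3, and Srebf1 measured 25.9, 26.6 and 27.6 FPKM in Cas9 libraries, against 29.8 FPKM in Ctrl 3.

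Scd1 and Elovl6 varied most among the Cas9 libraries themselves. Scd1 measured 7.27, 10.8 and 17.4 FPKM in Cas9 1, 2 and 3, a coefficient of variation of 43.5%, against 18.3 FPKM in Ctrl 3. Elovl6 measured 6.77, 9.65 and 12.2 FPKM in the same libraries, a coefficient of variation of 28.3%, against 9.45 FPKM in Ctrl 3, which lies inside their range. Cas9 1 was lowest and Cas9 3 highest for both genes. Summed epithelial markers ran the same way, at 1827, 2313 and 2565 FPKM in Cas9 1, 2 and 3. Summed macrophage markers ran the other way, at 5326, 4036 and 2138 FPKM, with Lyz2 the largest part. Not every marker followed its sum: Cldn4 was lowest in Cas9 3 (188.4 FPKM), and Cd14 and Mrc1 were highest there (53.2 and 61.0 FPKM). The part of these markers in the Scd1 and Elovl6 values was not tested. Adipocyte markers summed to 67.0, 53.9 and 45.4 FPKM in Cas9 libraries and 98.8 FPKM in Ctrl 3, and they include Fabp4, which macrophages also express. Adipoq, made by fat cells, averaged 0.991 FPKM in Cas9 libraries and was 2.98 FPKM in Ctrl 3. Cfd averaged 2.10 FPKM in Cas9 libraries and was 21.3 FPKM in Ctrl 3. The list was not uniform: Cas9 values of Lipe, Lep and Fabp4 spanned Ctrl 3, and Cidea, at 0 FPKM in Ctrl 3, was above it in every Cas9 library. The remaining adipocyte markers lay below Ctrl 3 in every Cas9 library. The part of adipocyte transcripts in the lower values of the synthesis genes was not tested.

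**Figure D5:**
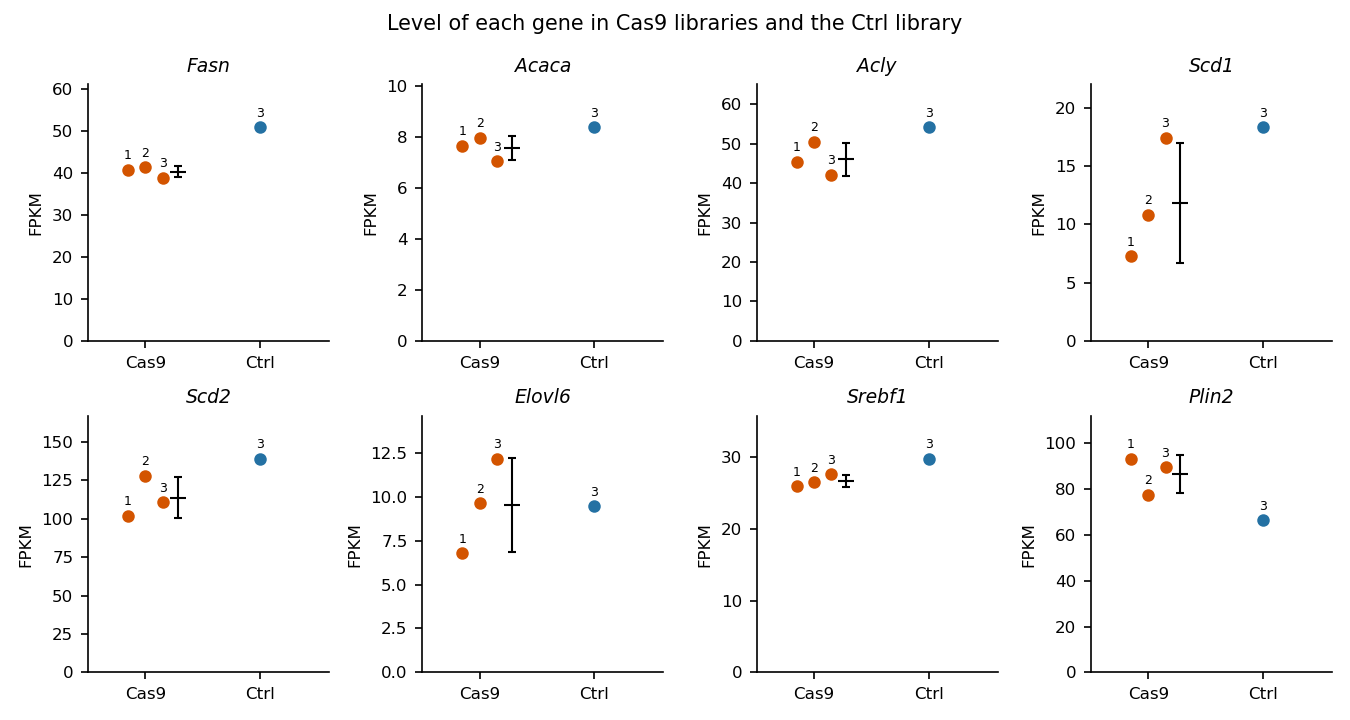
Level of each gene in FPKM (vertical axes, linear, starting at 0) in the 3 Cas9 libraries, with their mean ± SD as crosses, and in the Ctrl library. Plin2 lies above the Ctrl library in all 3 Cas9 libraries, 6 genes lie below it, and Elovl6 spans it, from 6.77 to 12.2 FPKM around 9.45 FPKM.

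The order of levels in the Cas9 libraries was Scd2, Plin2, Acly, Fasn, Srebf1, Scd1, Elovl6 and Acaca, and the order in Ctrl 3 was the same. Scd1 and Elovl6, and Elovl6 and Acaca, overlapped in Cas9 libraries. By its mean within each table, Plin2 stood at rank 2 here, at rank 3 in GSH libraries, where its range overlapped that of Fasn, and at rank 4 in WT libraries. These ranks cannot be compared between the tables, which divide by different gene lengths. Plin2 was divided by 3512 bases in the GSH and WT table and by 2706 here, and Acly by 5279 and 7850. Of the 128 lipid pathway genes tested in this table, limma called 0. Of the lists, the largest differences not called included Hilpda, at 18.4, 17.2 and 25.7 FPKM in Cas9 libraries and 9.96 FPKM in Ctrl 3, and Insig1, at 10.1, 17.3 and 16.4 FPKM in Cas9 libraries and 28.5 FPKM in Ctrl 3. G0s2, an inhibitor of the lipase Pnpla2, measured 5.91, 3.54 and 23.6 FPKM in Cas9 libraries and 2.48 FPKM in Ctrl 3.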

How the data were processed

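Messenger RNA values of 10 libraries (3 GSH, 3 WT, 3 Cas9 and 1 Ctrl) were used. The values the authors deposited are FPKM, as read from the values themselves, since neither labels nor headers name a unit. Build mm8, HTSeq (0.6.0), HISAT2 (2) and Bowtie2 (2.2.3) are listed, without roles, per the submitters' processing notes; as gene identifiers and lengths are younger than mm8, no gene coordinates are given. Whole reads (within at most 0.02 read) were recovered from the FPKM steps for 87.85% of genes above 0 in the GSH and WT table and 94.04% in the Cas9 and Ctrl table, and served for depth, reads and an alternative test.

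Symbols were matched to Ensembl identifiers through the reference tables. Each comparison was fitted within its own table with limma 3.58.1 (R 4.3.3; lmFit, eBayes with trend) on log2(FPKM + 1), over genes with a mean of 1 FPKM or more, two-sided, with Benjamini-Hochberg adjustment over all genes tested; a pseudocount of 1 understates changes of weakly expressed genes. The fit was run on simulated data with increases alone and a fixed small scatter, which does not show how it performs on these libraries. The ratios Scd1 per Scd2 and Plin2 per Fasn were tested by exact permutation as planned, and the ratios added later were run the same way. Intervals of log2 changes are 95% intervals from limma, and counting errors cover counting only.

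The 8 genes and the pathway and marker lists were chosen with earlier results of these data known. Besides the 8, each list gave up to 3 called genes per direction by smallest p in GSH against WT, with the largest uncalled differences as values, and some genes are not reported here; Slc25a1, Me1, Idh1, Cpt1a, Elovl1, Fads2, Acss2, Mcat and Mecr were added after their values were seen, as were 7 of the 9 ratios. Alternatives were another pseudocount, filter, scaling, trend, replicate block, term or subset for libraries with secretory transcripts, voom on recovered reads, and each library left out.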

Additional observations from a re-analysis of the deposited data

How the results depend on the processing

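Acly, Fasn and Plin2 were called higher in GSH in 15 of 15 alternatives with 2 or more libraries in each group, Acaca was called higher in 13 of 15 and Scd2 lower in 13 of 15; in the subsets with 1 library in a group, within WT 3, GSH 2 and GSH 3 and within WT 1, WT 2 and GSH 1, 0 of the 8 genes and 0 of the pathway genes were called in either direction. The count of the 8 called lower was 0 with no filter and 0 to 1 when a library was left out. Pathway genes called higher, 27 in the report, were 17 with no filter, 14 when scaled without mitochondrial genes, and 16 (without WT 1) to 22 when each library was left out in turn. Whether the replicate numbers pair the libraries was not settled. Correlations of deviations were 0.479, -0.107 and 0.209 for numbers 1, 2 and 3. GSH 1 and GSH 3 correlated best with the WT library of their own number, and GSH 2 with WT 3 (0.393). Deviations from the mean of so few libraries depend on each other. With the replicate block the 8 genes had the same calls, 4 higher and 1 lower, and 3867 genes were called in place of 4547. Genes not called crossed 0: Scd1 had a log2 change of 0.00455 with a term for the libraries with secretory transcripts, 0.0593 within WT 3, GSH 2 and GSH 3, and -0.0313 to 0.0179 on leaving out 1 library. Elovl6 had -0.0204 when scaled without mitochondrial genes. Srebf1 had -0.0150 with relative log expression scaling, -0.0599 without mitochondrial genes, -0.0117 with the term, -0.0254 within WT 1, WT 2 and GSH 1, and -0.0237 to 0.0237 on leaving out 1 library. In Cas9 against Ctrl, where 0 of the 8 were called in every alternative run, Elovl6 had -0.200 to 0.180 on leaving out 1 library. The causes were not tested. Counting error was 2.82% or less for each of the 8 in every library, and other effects of depth were not tested.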
